A study of Komagataella phaffii with 13 samples.

Results

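The 94 genes described here had, in the mixed feed of glycerol and methanol, a level within about 2-fold of that in each earlier phase, and a lower level when methanol was the sole carbon source. They are 94 of the 5100 genes of *P. pastoris* (*Komagataella phaffii*) with a mean FPKM of at least 1, out of 5439 identifiers in all. FPKM is the count of sequenced fragments of a gene, scaled for gene length and library size, and differences between libraries are given on the log2(FPKM + 1) scale, on which 1 stands for about a 2-fold difference. A gene was a member when the library of the glycerol-methanol feed (GM_2) lay within 1 of the yeast cell culture (B_10) and within 1 of the glycerol feed (G_3), and when the median of the 10 libraries of methanol induction lay at least 1 below each of these 3. Genes that the study lists in its supplementary tables were left out. The members were therefore chosen on these very values, and their differences between methanol and the earlier phases are a description without a test.

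The strain was GS115, of the type that uses methanol at the full rate (Mut+), with a phytase gene from *Aspergillus niger* under the AOX1 promoter, and all 13 libraries shared these features. The yeast cell culture was sampled at 10 h, the glycerol feed at 3 h, the glycerol-methanol feed at 2 h and methanol induction every 12 h between 12 h (M_12) and 120 h (M_120), with 1 library at each point. The study describes 1 fermentation at production scale, whereas the sample labels name the first stage a bench-scale batch, give successive methanol samples other strain numbers and contain an extraction text for an animal tissue. Culture age, cell density and growth rate changed along with the feed, so that their parts in any difference between phases cannot be told apart.

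Glycerol enters metabolism through glycerol kinase (GUT1) and feeds glycolysis and the TCA cycle. Methanol is first oxidized to formaldehyde by alcohol oxidase in the peroxisome, and the AOX1 gene that encodes the enzyme is held down by glycerol and induced by methanol. A mixed feed of glycerol and methanol is used to let cells build up the methanol pathway before glycerol is withdrawn. The labels of the phases were checked on these 2 genes. AOX1 (PAS_chr4_0821) had 11.3 FPKM in B_10, 38.2 in G_3 and 928 in GM_2, and between 18913 and 33180 in the methanol libraries. GUT1 (PAS_chr4_0783) had 1572 FPKM in B_10, 1202 in G_3 and 2395 in GM_2, and between 58.3 and 115 in the methanol libraries. The reference table matched all 94 members by locus tag and repeats the locus tag as the symbol, so that no name or role is given for any member and genes are called by their locus tags.

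Depth was recovered from the FPKM, and the libraries held between 23453957 and 42623689 fragments in annotated genes. The median over all genes tested stayed within 0.04 of GM_2 in every library. The 20 most abundant genes took between 17.3 and 21.4% of the FPKM of a methanol library, against 8.06 to 10.8% in the 3 earlier ones. When the libraries were rescaled without these 20 genes, the median over all genes of methanol minus GM_2 was 0.09, and that over the members was −1.40 in place of −1.50. All 94 members remained below GM_2, but only 62 of them still met the rule.

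All 10 methanol libraries lay below B_10, G_3 and GM_2 in each of the 94 members, where 20.6% of all genes tested had such groups without overlap. The rule had used these contrasts, and nothing is read from that count. The condition on methanol alone was met by 123 genes, or 2.41% of those tested, and 8.41% of the genes tested had a methanol median at least 1 below GM_2. Of the 123 genes, 22 failed the condition on GM_2, 10 of them because GM_2 was already more than 1 below B_10 or G_3 and 12 because it was more than 1 above one of them. Of the 101 identifiers left, 94 were members, 6 are listed in the study's tables and 1 is a transcript that the authors numbered themselves.

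By their methanol medians the members were reduced and still detected. The methanol median was 34.5% of the GM_2 value in the middle of the list, with a range of 14.7 to 47.8%. On the log2 scale the difference between the methanol median and GM_2 ran from −2.68 to −1.04 with a median of −1.50, beside a median of 0.00 over all genes tested. The members' median of the mean FPKM over B_10, G_3 and GM_2 was 69.3, and their median of the methanol median was 22.9. The lowest methanol median of any member was 5.95 FPKM, for PAS_chr4_0090.

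**Figure D1:**
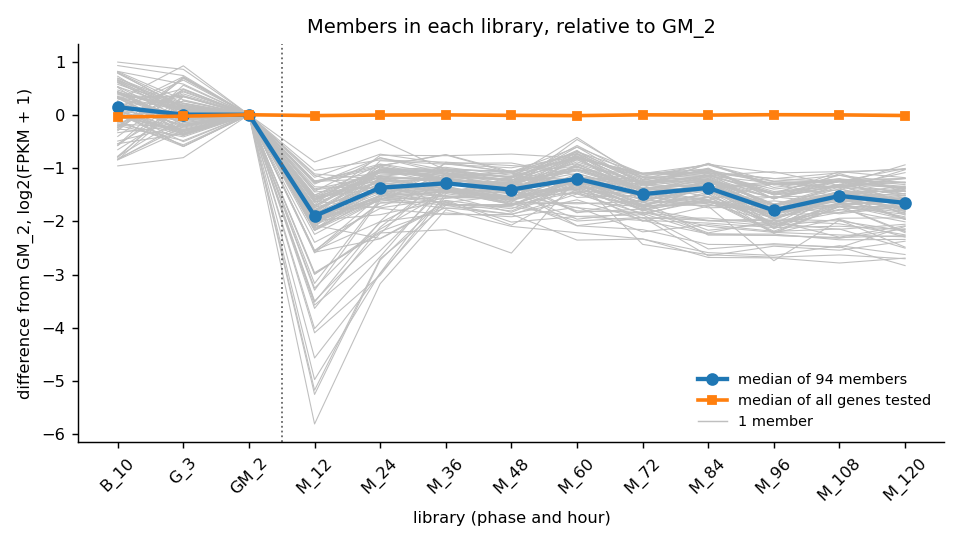
Difference of every member from GM_2 on the log2(FPKM + 1) scale, by library in the order of the fermentation. Grey lines are the 94 members, the blue line is their median and the orange line is the median of all genes tested; the dotted line marks the start of methanol as sole carbon source. The median of the members is −1.90 at M_12 and −1.20 at M_60, and that of all genes stays near 0.

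Within the glycerol phases the members did not move in one direction. GM_2 lay above both earlier libraries in 17 members, below both in 30 and between them in 47. The median difference of GM_2 from B_10 was −0.14 and that from G_3 was 0.00, within limits of 1 that the rule had set. G_3 was above B_10 in 31 members and in 50.1% of all genes tested. The median difference of G_3 from B_10 was −0.28 over the members and 0.00 over all genes tested.

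The size of the drop depended on the methanol library. The median difference of the members from GM_2 was −1.90 at M_12, −1.37 at M_24, −1.29 at M_36, −1.41 at M_48, −1.20 at M_60, −1.49 at M_72, −1.37 at M_84, −1.80 at M_96, −1.52 at M_108 and −1.66 at M_120. M_12 and M_96 were thus the low points and M_60 the high point. At M_60, 61 of the 94 members were at least 1 below GM_2, while at M_72, M_96 and M_108 all 94 were. The rule had used this contrast by its median, and the share of all genes tested was not counted by library. A difference of at least 1 from each of B_10, G_3 and GM_2 was found in all 10 methanol libraries for 21 members, where 0.647% of all genes tested met this. It was found in at least 8 of the 10 libraries for 65 members, a count not made over all genes tested. The rule's condition on the median required it in at least 5 for all 94.

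The members together took 1.53% of all FPKM in B_10, 1.80% in G_3 and 1.84% in GM_2. In methanol they took 0.432% at M_12, 0.694% at M_60, 0.473% at M_96 and 0.437% at M_120, and no methanol library was above its M_60 value.

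PAS_chr3_1155 had the largest drop of all members. It had 81.8 FPKM in B_10, 131 in G_3 and 97.0 in GM_2. At M_12 its level was 0.75 FPKM, which rested on 15 recovered fragments with an exact Poisson 95% interval of 0.42 to 1.24 FPKM for counting error only. It then had 9.86 FPKM at M_24 and 27.5 at M_36, and between 13.2 and 21.9 in the 7 later libraries. The gene was nearly undetected 12 h into methanol and came back to a level below the earlier libraries that declined after M_36. Its methanol median was 14.2 FPKM or 14.7% of GM_2.

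PAS_chr2-1_0693 and PAS_chr3_0243 had the same course. PAS_chr2-1_0693 had 60.8 FPKM in B_10, 119 in G_3 and 73.8 in GM_2, then 0.96 at M_12, 10.3 at M_24 and 24.7 at M_36, and it ended at 9.50 at M_120. Its M_12 value rested on 22 fragments, with an interval of 0.60 to 1.46 FPKM. PAS_chr3_0243 had 64.3 FPKM in B_10, 143 in G_3 and 113 in GM_2, then 2.16 at M_12, 16.5 at M_24 and 34.0 at M_36, and 17.5 at M_120. In both genes G_3 was the highest of the 13 libraries and M_36 the highest of methanol induction.

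PAS_chr4_0384 had this course at a higher level. It had 241 FPKM in B_10, 355 in G_3 and 435 in GM_2, then 12.9 at M_12, 54.5 at M_24, 171 at M_36 and 83.1 at M_120. PAS_chr4_0461 had 51.9, 84.1 and 93.8 FPKM in the 3 earlier libraries, in the order of the fermentation, then 3.00 at M_12, 11.0 at M_24 and 30.1 at M_36. PAS_chr4_0305 had 11.3 FPKM at M_12 and 83.0 at M_36, and PAS_chr3_0193 had 16.5 at M_12 and 106 at M_36. In all of these the methanol libraries peaked at M_36, at a level that was still below each of the 3 earlier ones.

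**Figure D2:**
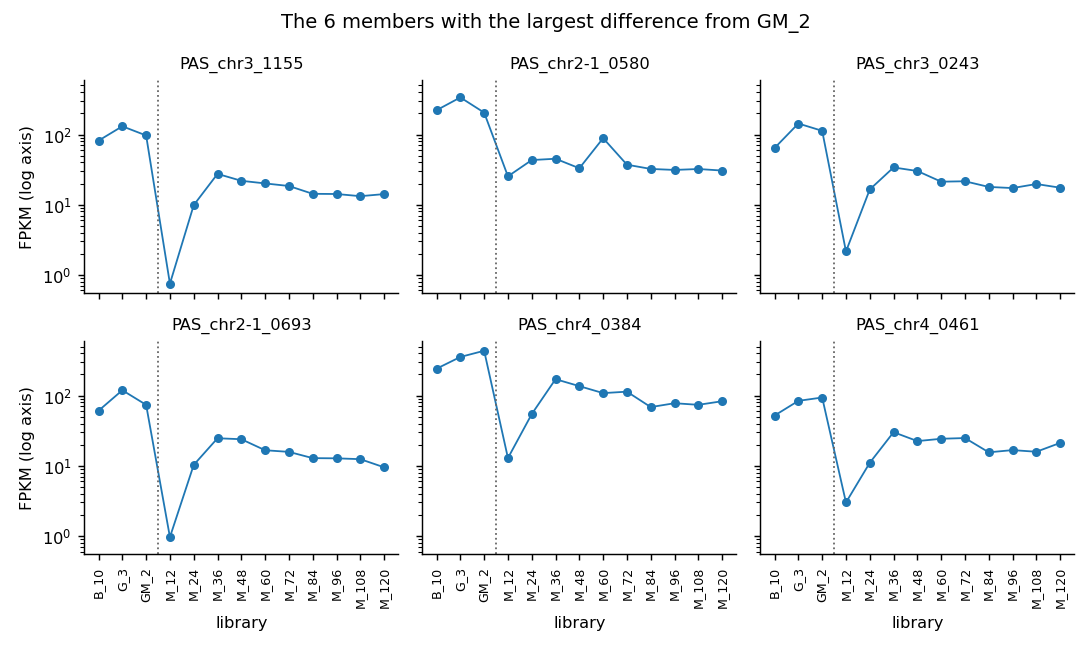
FPKM on a log axis in each library for the 6 members with the largest difference between the methanol median and GM_2, with the dotted line at the start of methanol as sole carbon source. All 6 genes have their lowest value at M_12, and 5 have their highest methanol value at M_36. PAS_chr2-1_0580 instead has its highest methanol value, 88.7 FPKM, at M_60.

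Another 3 members with large drops were also lowest at M_12, but without so deep a low point. PAS_chr2-1_0580 had 222 FPKM in B_10, 338 in G_3 and 205 in GM_2. In methanol it lay between 25.4 and 45.2 FPKM in 9 libraries and at 88.7 in M_60, between 33.1 at M_48 and 37.1 at M_72. PAS_chr3_1058 had 720 FPKM in B_10, 1192 in G_3 and 1052 in GM_2, and in methanol a lowest value of 175, a median of 222 and a highest of 327. PAS_chr1-1_0419 had 133, 112 and 105 FPKM in the earlier libraries and between 17.1 and 30.9 in methanol. These 3 genes had methanol medians of 15.9, 21.1 and 22.5% of GM_2.

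By level, PAS_chr4_0504 stood first. It had 2013 FPKM in B_10, 3071 in G_3 and 3573 in GM_2, and in methanol a lowest value of 713, a median of 874 and a highest of 1365. PAS_chr1-1_0002 followed with 1949, 2141 and 2460 FPKM in the earlier libraries, and 309 at M_12 with a methanol median of 588. PAS_chr1-3_0075 had 974 FPKM in B_10, 1239 in G_3 and 1036 in GM_2, and between 340 and 483 in methanol. It was one of 7 members whose M_12 level was above the median of the later methanol libraries, by 0.32 on the log2 scale.

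Between 410 and 670 FPKM in B_10 there were 4 more members. PAS_chr4_0808 had a methanol median of 211 FPKM against 502 in GM_2, and PAS_chr2-2_0149 had 113 against 385. PAS_chr1-4_0304 was the steadiest of the abundant members, with 165 to 198 FPKM in methanol against 485 in GM_2. PAS_chr3_0899 varied most of these 4, with 71.8 FPKM at M_12, 257 at M_60 and 96.6 at M_96 against 430 in GM_2. PAS_chr3_0208, with 253 FPKM in GM_2, had 27.2 at M_12 and 134 at both M_36 and M_48.

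**Figure D3:**
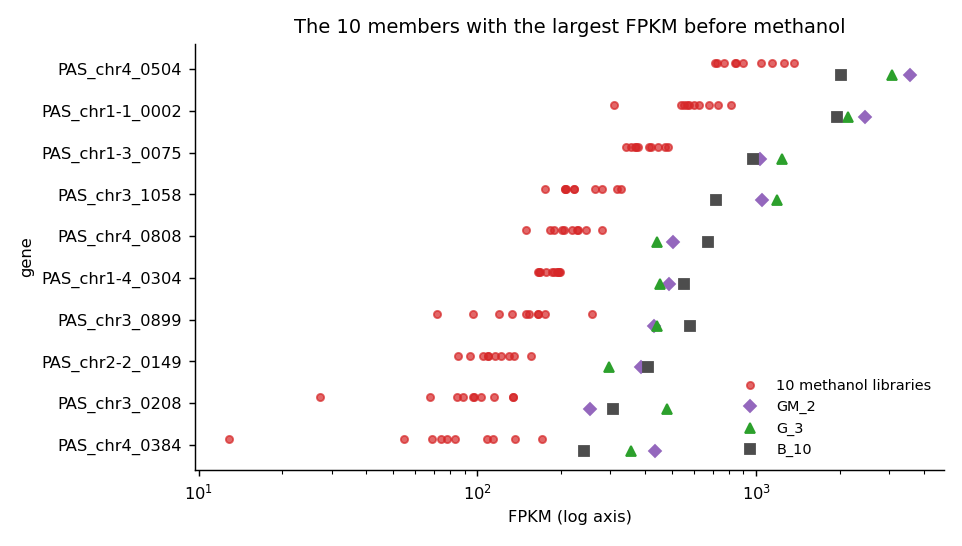
FPKM on a log axis for the 10 members with the largest mean FPKM over B_10, G_3 and GM_2. Red points are the 10 methanol libraries, and the purple, green and grey symbols are GM_2, G_3 and B_10; in each gene all red points lie to the left of the 3 others, and PAS_chr4_0384 has the widest spread, from 12.9 to 171 FPKM.

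The rule has no gap at its threshold. Just inside the required drop of 1 were PAS_chr3_1115 and PAS_chr1-3_0188, both at 1.004 below the nearest earlier library. Just outside were PAS_chr2-1_0832 at 0.996 and PAS_chr2-1_0485 at 0.988. On the condition that GM_2 lie within 1 of both earlier libraries, PAS_chr4_0743 was just inside at 0.990, with 80.3 FPKM in GM_2 and 160 in B_10, and PAS_chr3_0727 was just outside at 1.002, with 20.9 FPKM in GM_2 and 42.9 in G_3.

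The order of the 10 methanol libraries had no part in the rule, so that change during methanol induction could be tested. A line over the hours was fitted by limma across all 5100 genes, and the fitted change is that over the 108 h from M_12 to M_120. The libraries are serial samples of 1 culture, so that the p-values measure only the scatter around a line in time. A total of 1 member fell over the hours, where 2.8% of all genes tested fell, and 1 member rose, where 4.88% of all genes rose. PAS_chr1-4_0659 rose by 0.46 ± 0.10 (SE; limma adjusted p = 0.0212), with a lowest methanol value of 82.8 FPKM at M_24, a median of 107 and a highest of 122 at M_120. PAS_chr1-4_0080 fell by 0.40 (SE 0.10, limma adjusted p = 0.0368), with 30.1 FPKM at M_12, 34.6 at M_24 and 24.8 at M_120. PAS_chr1-4_0659 lost the call without M_24, M_96 or M_120 (limma adjusted p between 0.0518 and 0.0773), after rescaling (0.0892) and for the 5 late against the 5 early libraries (0.108). PAS_chr1-4_0080 lost it without M_24, M_36, M_48, M_72, M_96, M_108 or M_120 (limma adjusted p between 0.0595 and 0.142), over the log2 of the hours (0.117) and for the late against the early libraries (0.108). Without M_12, 9 members fell, where 5% of all genes tested fell, and 1 rose, where 6.57% rose.

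The median fitted change over the members was −0.07, beside 0.01 over all genes tested, and the range over members was −0.70 to 1.33. The upper end was PAS_chr3_1155 with a change of 1.33 ± 0.92 (SE), which did not pass the test (limma adjusted p = 0.398), since its values were far from a line. The SD of the 10 methanol libraries had a median of 0.28 over the members and 0.15 over all genes tested. The members thus varied within methanol, but mostly without a straight course over the hours.

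Where in methanol the low and high values fell was uneven. M_12 was the lowest methanol library in 54 members (57.4%) and in 26.3% of all genes tested, and M_96 was the lowest in 25 members (26.6%) and in 8.16% of all genes tested. M_60 was the highest methanol library in 55 members (58.5%) and in 17.2% of all genes tested, and M_36 was the highest in 18 members (19.1%) and in 4.51% of all genes tested. M_36 and M_60 were the lowest library in 0 members, and in 3.59 and 18.6% of all genes tested. M_96 and M_108 were the highest in 0 members, and in 6.76 and 4.63% of all genes tested. M_12 was the highest in 1 member (1.06%) and in 24.0% of all genes tested.

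**Figure D4:**
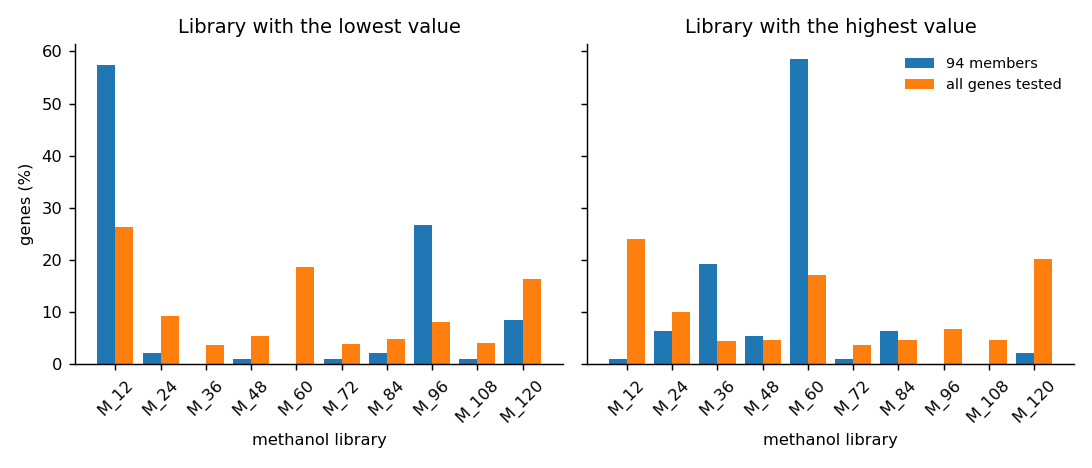
Share of genes, in percent, whose lowest (left) and highest (right) methanol value is in each of the 10 methanol libraries; blue bars are the 94 members and orange bars all genes tested. The members' bars stand out at M_12 and M_96 on the left and at M_60 and M_36 on the right.

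A term for M_12 was then added to the line over the hours, which was chosen after seeing these values. M_12 lay below the line in 29 of the 94 members by limma, where 6.33% of all genes tested did, and above it in 0 members, where 3% of all genes tested did. The estimate was below 0 in 90 of the 94 members, and in 2541 of the 5100 genes tested. Its median was −0.67 over the members and 0.00 over all genes. Over the 29 members the estimates ran from −3.54 to −0.60. With this term the line rested on the later methanol libraries and was extended back to 12 h. A steady fall after M_24 could therefore also put M_12 below the line. PAS_chr2-1_0343, at −0.60, had 14.4 FPKM at M_12, above its 11.6 at M_96 and 10.5 at M_120. When the members were chosen without M_12, so that this library had no part in the choice, 89 genes met the rule, of which 88 were the same, and 29 of the 89 lay below the line at M_12 and 0 above it. With M_60 left out of the fit, 44 members lay below the line at M_12, where 8.25% of all genes tested did.

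The 5 largest estimates belonged to genes described above. For PAS_chr3_1155 M_12 lay at −3.54 ± 0.44 relative to the line (SE, limma adjusted p = 0.00104). The estimate was −3.44 ± 0.43 for PAS_chr2-1_0693, −3.12 ± 0.34 for PAS_chr3_0243, −3.05 ± 0.54 for PAS_chr4_0384 and −2.40 ± 0.46 for PAS_chr4_0461 (SE, limma adjusted p between 0.000683 and 0.00989). All 5 kept their call under every alternative run. Among the abundant members, PAS_chr1-1_0002 had an estimate of −1.17 ± 0.22 (limma adjusted p = 0.00875), while that of PAS_chr4_0504 was −0.39 ± 0.36 and did not pass (limma adjusted p = 0.471).

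Most members with a deep low point at M_12 had another feature in common. In 16 members M_12 was at least 1 below the median of the later methanol libraries, where 3.61% of all genes tested were. Of these 16, 15 had G_3 above B_10, and 15 had their highest methanol value at M_36 or M_48. Of the other 78 members, 16 had G_3 above B_10, 8 were highest at M_36 or M_48 and 54 at M_60. The exception in both counts was PAS_chr3_0899, with 440 FPKM in G_3, 581 in B_10 and its highest methanol value at M_60. Among all genes tested with such a low M_12, 66.8% had G_3 above B_10, and their highest methanol library was not counted. Of the 29 members past the limma threshold for M_12, 20 had G_3 above B_10, as had 11 of the 65 other members. B_10 and G_3 are 1 library each, and the pattern was noticed in these same data.

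**Figure D5:**
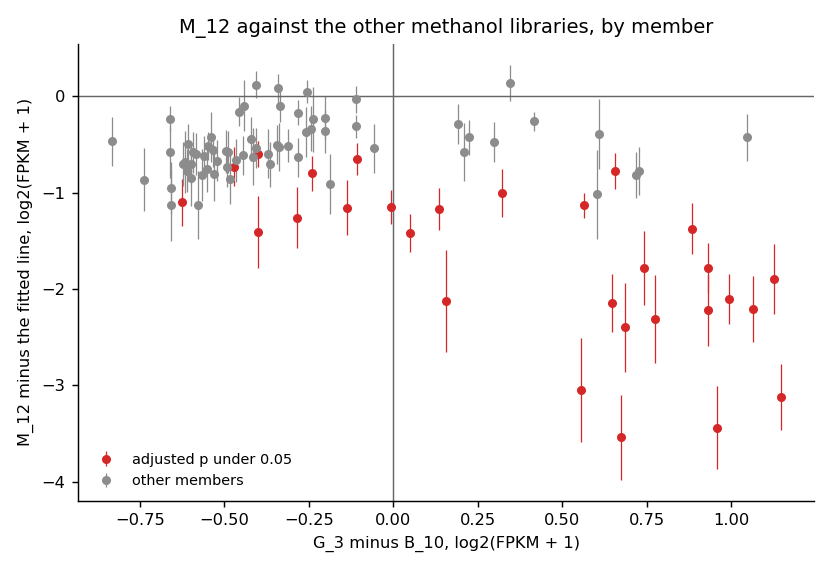
Estimate for M_12 relative to the line over the hours against the difference of G_3 minus B_10, both on the log2(FPKM + 1) scale, with 1 point per member and bars of 1 SE. Red points are the 29 members past the threshold by limma; the estimates under −1.5 all lie to the right of 0 on the horizontal axis.

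The same term for M_60 gave a broad but small difference. Its estimate was above 0 in 91 of the 94 members with a median of 0.43, against 2536 of the 5100 genes tested and a median of 0.00. By limma it passed the threshold in 0 members, as in 0% of all genes tested, and at an unadjusted p under 0.05 in 27 members, against 436 of all genes tested. The lowest limma adjusted p of a member was 0.103. PAS_chr2-1_0580, with its 88.7 FPKM at M_60, had the largest estimate at 1.35, and PAS_chr2-1_0680 followed at 0.99 with 30.2 FPKM at M_60 and 12.2 at M_96.

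The genes that met the values of the rule but are listed in the study's tables have known roles and give a comparison of course. The 6 are GUT1, SCS1 and SCS2 for the subunits of succinyl-CoA ligase, PDE1 of the pyruvate dehydrogenase complex, DLD for dihydrolipoamide dehydrogenase, and TK for transketolase. M_12 lay below the line, extended back to 12 h, for GUT1 at −1.05 ± 0.18 (SE, limma adjusted p = 0.00585). However, GUT1 had 58.3 FPKM at M_12, 115 at M_24 and 58.7 at M_120. Its M_12 level differed from the median of the later libraries by only −0.22. The term for M_12 did not pass for the other 5, with estimates between −0.19 and 0.08 and limma adjusted p between 0.444 and 0.861. All 5 of these genes of central carbon metabolism had their lowest value at M_120, which was the lowest library in 8 of the 94 members (8.51%) and in 16.2% of all genes tested.

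By locus tag, 21 of 1447 genes tested on chromosome 1 were members, 23 of 1329 on chromosome 2, 27 of 1178 on chromosome 3 and 20 of 946 on chromosome 4, or 1.45, 1.73, 2.29 and 2.11%. A further 3 of 38 genes tested whose locus tags name another contig were members (7.89%), namely PAS_c121_0005, PAS_c121_0011 and PAS_c121_0014. Of the genes whose locus tags name FragB and FragD, 0 of 69 and 0 of 25 were members. Median gene length was 1206 bases for the members and 1199 for the annotated genes tested. A total of 5 pairs of members were next to each other in the annotation, and none of the pairs overlapped in it.

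The neighbours did not always share a course. PAS_chr1-4_0081 had 10.4 FPKM at M_12 and 32.4 at M_36, and its estimate for M_12 was −1.37 ± 0.27 (limma adjusted p = 0.0108), while PAS_chr1-4_0080 had 30.1 FPKM at M_12 and 33.6 at M_36 (limma adjusted p = 0.104). PAS_chr4_0089 had 3.71 FPKM at M_12 and 28.1 at M_36, and PAS_chr4_0090 beside it had 3.51 and 8.95, the first of them from 76 fragments with an interval of 2.76 to 4.39 FPKM. PAS_chr4_0460 had 7.96 FPKM at M_12 and 18.8 at M_36, next to PAS_chr4_0461 with 3.00 and 30.1. In all 4 genes on chromosome 4 just named, M_12 lay below the line (limma adjusted p between 0.00336 and 0.0331). The estimates were −2.22 for PAS_chr4_0089, −1.01 for PAS_chr4_0090, −1.15 for PAS_chr4_0460 and −2.40 for PAS_chr4_0461. In the pairs PAS_chr3_0683 with PAS_chr3_0684 and PAS_chr4_0742 with PAS_chr4_0743, all 4 genes were highest in methanol at M_60, and all but PAS_chr4_0743, which was lowest at M_12, were lowest at M_96. Differences between neighbours were not tested.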

How the data were processed

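RNA of 13 samples was sequenced as paired-end reads. Alignment was with HISAT2 2.0.5, per the submitters' processing notes. The authors deposited FPKM for each gene, in which gene length and library size are already accounted for. The build and the fragment counter were not given in the sources used here. The gene length, start and end columns were not used for coordinates, since no build is stated.

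Values were analysed as log2(FPKM + 1) with genes below a mean FPKM of 1 left out, and the pseudocount understates the change of low genes. Phases with 1 library have no replicate, and their differences carry no p-value. Within methanol induction limma 3.58.1 (R 4.3.3, empirical Bayes trend, two-sided) was fitted over the hours with 8 residual degrees of freedom, and with a term for 1 library with 7, with Benjamini-Hochberg adjustment over all genes tested and a threshold of 0.05. The fits were tested on simulated data with independent noise around each gene's mean. Such data cannot show how the fits hold for serial samples of 1 culture. Python 3.11.15 was used with pandas 2.3.3, numpy 2.4.6 and scipy 1.17.1, and figures were drawn in matplotlib 3.10.9.

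Depth was recovered because FPKM times gene length is a whole multiple of 1 fragment. Of the 400 lowest values per library, 91.2 to 95% were whole within 0.05 fragments. No count test was run. Lengths came from the RefSeq table of assembly ASM2700v1, matched by locus tag.

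The members and lists were chosen with earlier results of these data known. The genes named are the 10 with the largest drop and the 10 with the largest mean FPKM over B_10, G_3 and GM_2. Also named are those past a threshold over the hours, those nearest the limits of the rule, and neighbouring pairs. Those with the largest estimates for M_12 and M_60 are named too. The planned rule asked for annotated products and allowed only 2 genes without one. No products are in the tables used here, so the rule was applied to locus tags. For the same reason counts by gene list and by promoter motif were not run, and no sequence is shown. Alternatives changed the pseudocount, filter, scaling, limits of the rule, limma settings and methanol libraries used.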

Additional observations from a re-analysis of the deposited data

Results flagged for a closer look

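In 10 of the 31 members named, the M_12 library stood apart from the other 9 methanol libraries on the low side by Dixon's criterion for 10 values at the 95% level. The gap to the nearest library, as a part of the whole range, was 0.712 for PAS_chr3_0243, 0.654 for PAS_chr3_1155, 0.653 for PAS_chr2-1_0693, 0.577 for PAS_chr4_0089, 0.573 for PAS_chr1-1_0002, 0.567 for PAS_chr3_0208, 0.55 for PAS_chr4_0384, 0.537 for PAS_chr4_0461, 0.487 for PAS_chr4_0305 and 0.479 for PAS_chr1-4_0081. In PAS_chr2-1_0580 it was M_60 that stood apart on the high side, at 88.7 FPKM, with a gap of 0.543. Chance alone picks out about 5% of groups in this way, and several of these genes were named because of their M_12 or M_60 value.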

How the results depend on the processing

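The number of members stayed within 1.5 times under most settings. It was 106 with a pseudocount of 0.1, 69 with 5, 95 without a filter, 94 with a filter at a mean FPKM of 10 and 65 after rescaling without the 20 largest genes. Asking for a drop of at least 1 in all 10 methanol libraries left 21, and asking for a drop of 1.5 left 16. Leaving out 1 methanol library gave 89 to 102. The members with a change over the hours numbered 2 as reported, 6 after rescaling (all lower), 1 over the log2 of the hours, 1 for the 5 late against the 5 early libraries, and 0 to 10 when 1 library was left out, with 10 when it was M_12 and 0 when it was M_24 or M_96. The members below the line at M_12 numbered 29 as reported, 26 after rescaling, and 20 to 44 when 1 other library was left out, with 44 without M_60. Without the line over the hours, 20 members were lower at M_12 than the mean of the later methanol libraries. The members higher at M_60 numbered 0 as reported and 0 to 1 when 1 library was left out. The share of all genes tested was counted only for the reported fits, the change without M_12 and the M_12 term without M_60. The other counts therefore have no background beside them. The terms for M_12 and M_60 were chosen after seeing the data. The direction of every named member held under every setting run wherever it had passed a threshold. The difference from GM_2 moved by more than the SD of the methanol libraries in 2 cases, to −1.25 for PAS_chr1-4_0304 after rescaling and to −1.21 for PAS_chr4_0090 with a pseudocount of 5. PAS_chr3_0899, PAS_chr3_0193, PAS_chr1-1_0419, PAS_chr4_0743 and PAS_chr4_0090 passed for M_12 as reported and lost the call in at least 1 setting. The causes were not tested. No paired analysis was possible because each earlier phase has 1 library and no group shares more than 1 replicate number with another.

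Each phase before methanol induction rests on 1 library and the methanol libraries come from 1 culture, so that no difference between phases has an error. FPKM are relative values and hold no measure of RNA per cell. Counting error was widest for the M_12 values of the members with the fewest fragments.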
